A study of Bos taurus with 8 samples.

Results

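Amino acid transporters of the liver are membrane proteins of the solute carrier (SLC) families that move amino acids between plasma and the cell. Systems A and N, formed by SLC38 proteins, use the sodium gradient to carry small neutral amino acids, and glutamine, asparagine and histidine, respectively. System L exchanges or releases large neutral amino acids such as leucine, system ASC exchanges alanine, serine, cysteine and glutamine, and system y+ carries arginine and lysine. In the liver these proteins bring in the substrates of gluconeogenesis, urea synthesis and plasma protein synthesis. The 10 genes described here were chosen by name, with earlier results of these data known. They cover these systems and, with SLC6A9, the transport of glycine: SLC38A2, SLC38A3, SLC38A4, SLC7A2, SLC7A5, SLC3A2, SLC1A4, SLC1A5, SLC43A1 and SLC6A9. Probes were assigned to them by the RefSeq accession that the scanner files give for each probe. By this rule 9 of the 10 genes had a probe, among 12603 genes with a probe in all, and all 9 were detected, among 10860 detected genes. SLC7A2, a cationic amino acid carrier, had 0 matched probes and was not analysed here.

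The liver came from Japanese Black fetal calves at 8.5 months after conception, all from male-sorted semen of 1 bull. Dams of the low-nutrition (LN) group received 60% of their nutritional requirement during gestation, and dams of the high-nutrition (HN) group received 120%. No group was fed at the requirement itself. RNA of 4 LN fetuses (L5, L6, L8 and L9) and 4 HN fetuses (L1, L2, L3 and L10) was hybridised in 1 colour to Agilent bovine arrays, 1 fetus per array by the sample labels, although the description of the series speaks of pooled RNA. By the methods, the fetuses were the lightest of the LN group and the heaviest of the HN group. The LN arrays lay on 1 slide and the HN arrays on another, scanned separately, so slide, scan and diet cannot be told apart.

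Each array had 43803 spots, of which 32635 to 34369 were well above local background and 0 were saturated. Signals were quantile normalized on the log2 scale. Detection required a signal well above background on 4 or more arrays, and each gene is given by its brightest detected probe. Across 10860 detected genes, 657 (6.05%) reached an unadjusted limma p of 0.05 and 450 (4.14%) had LN and HN fetuses that did not overlap. After Benjamini-Hochberg adjustment over 33439 detected probes, 0 passed 0.05 by limma (lowest adjusted p = 0.634), against 2113 probes at an unadjusted p of 0.05 (6.32%), and 0 by the methods' t-test, which they name for metabolites and not for arrays, against 2285 before adjustment. With 4 fetuses against 4, the smallest p that the exact permutation test can give is 0.0286. The label was checked against hepatocyte markers. All 8 with a probe were detected, and their summed signal lay between 1934170 and 2081050 in every fetus. Quantile normalization gives the brightest probes nearly the same values on every array, so this narrow range was largely set by the method. It does not measure hepatocyte content. Erythroid markers, of which 9 of 14 were detected, differed more between fetuses than any other marker list. Their summed signal ran from 30263 to 301757 in LN and from 11590 to 76341 in HN. EPB42, SLC4A1, HEMGN, KLF1 and RHAG of this list were not detected. In pieces of whole liver, fewer cells of a type and less RNA per cell cannot be told apart.

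The transporters did not move as a block. SLC1A4 of system ASC had a 1.72-fold higher mean signal in the LN group, and its fetuses did not overlap between the groups. SLC7A5 and SLC3A2, the chains of the system L exchanger, and SLC1A5 had higher means in LN. The system A carriers SLC38A2 and SLC38A4, SLC43A1 and SLC6A9 had lower means in LN by amounts below or near the spread between fetuses. In all, 5 of 9 genes had a higher and 4 a lower mean in LN, beside 51.6% and 48.4% of all detected genes. Their median log2 difference was 0.19 against 0.0075 over all detected genes, and it ran from 0.00055 without HN fetus L2 to 0.31 without LN fetus L8. At an unadjusted limma p of 0.05, 2 of 9 genes were higher in LN and 0 lower, beside 3.30% and 2.75% of all detected genes. The 2 became 1 without LN fetus L5 or L6 or HN fetus L1, L2 or L10, and with the mean over a gene's probes. The fetuses of 1 gene, higher in LN, did not overlap, and those of 0 lower genes, beside 2.59% and 1.56% of all detected genes. The lowest limma adjusted p of the 9 was 0.725, so 0 passed 0.05.

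**Figure D1:**
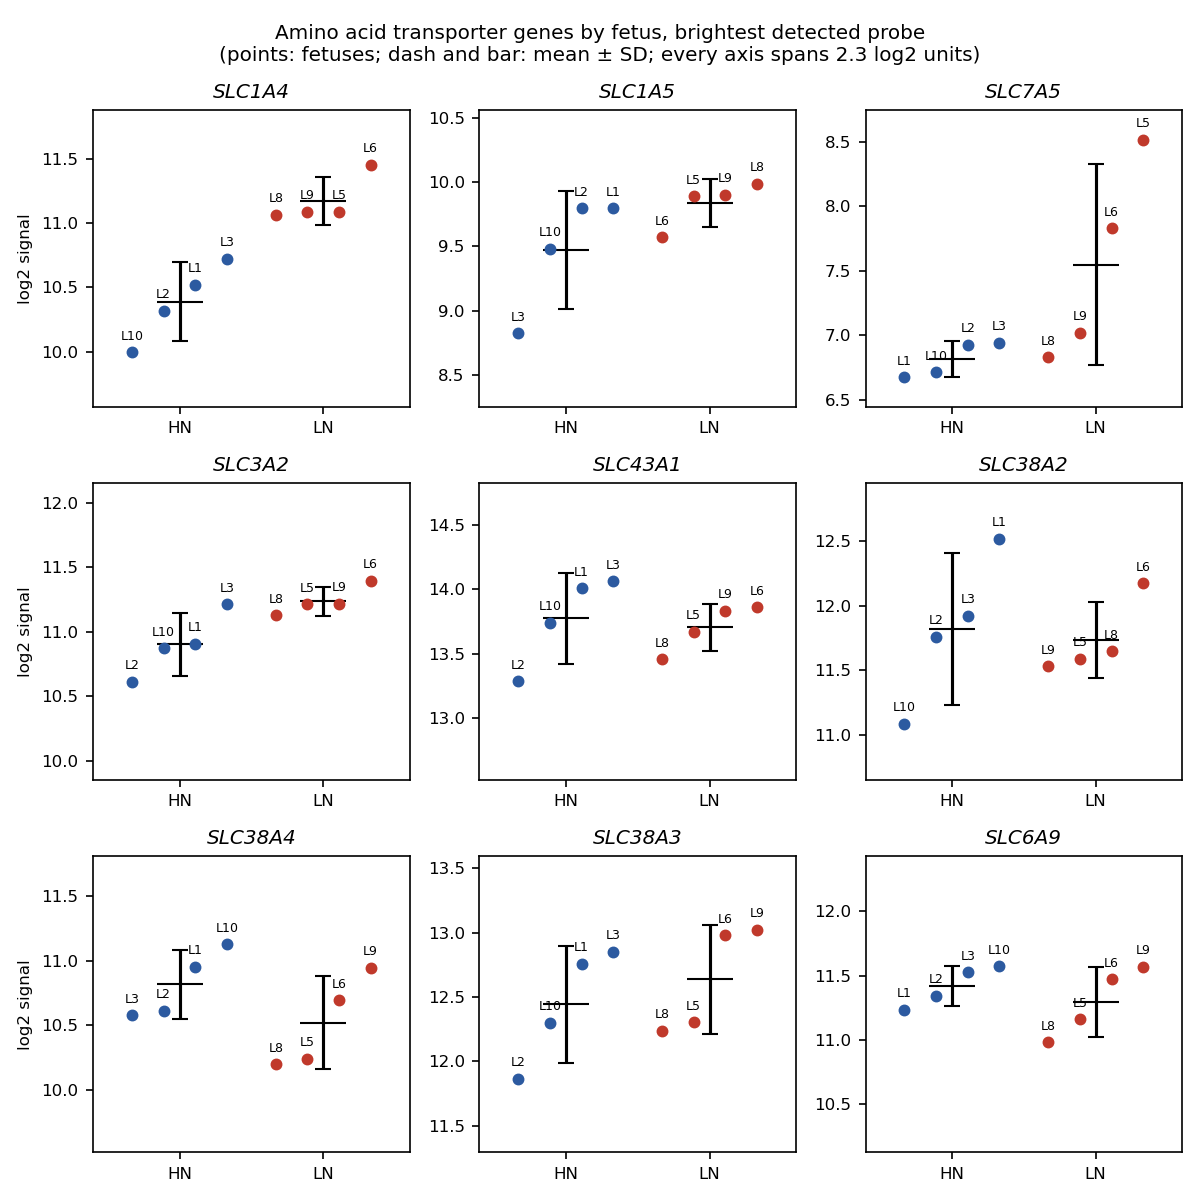
Each panel plots the log2 signal of 1 transporter gene in every fetus (points, HN blue and LN red, numbered as in the labels), with the mean and SD of each group of 4. In SLC1A4 all LN fetuses (11.06 to 11.45) lie above all HN fetuses (9.998 to 10.72), and in the other 8 genes the groups overlap.

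SLC1A4 encodes ASCT1, a sodium-dependent exchanger of alanine, serine, cysteine and threonine. Its log2 signal (NM_001081577) was 11.09, 11.45, 11.06 and 11.09 in LN fetuses L5, L6, L8 and L9. In HN fetuses L1, L2, L3 and L10 it was 10.52, 10.32, 10.72 and 9.998. The lowest LN fetus thus lay above the highest HN fetus. The LN mean was 11.17 ± 0.19 and the HN mean 10.39 ± 0.31 (SD, n = 4 each), a difference of 0.78 on the log2 scale (standard error, SE, 0.18, limma adjusted p = 0.725, exact permutation p = 0.0286). The 2 dimmer probes of SLC1A4 differed by 0.81 (SE 0.27) and 0.51 (SE 0.27) on the log2 scale, also higher in LN, with overlap between the groups. Among 10860 detected genes, SLC1A4 ranked 132 from the largest excess in LN. Leaving out 1 fetus at a time gave 0.65 to 0.89, with an unadjusted limma p under 0.05 in 8 of 8 cases.

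SLC1A5 encodes ASCT2, the glutamine exchanger of the same family. Its only probe (NM_174601) read 9.89, 9.57, 9.99 and 9.90 in LN fetuses L5, L6, L8 and L9 on the log2 scale. HN fetuses L1, L2, L3 and L10 read 9.79, 9.79, 8.83 and 9.48. The LN fetuses were close together, HN fetus L3 was the lowest of all 8, and LN fetus L6 lay among the HN fetuses. The log2 difference was 0.36 (SE 0.22, limma adjusted p = 0.818, exact permutation p = 0.171), and it was 0.15 without HN fetus L3.

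The system L exchanger is a pair of chains, SLC7A5 (LAT1), which forms the path for leucine and other large neutral amino acids, and SLC3A2 (4F2hc or CD98), a glycoprotein that holds it and several related light chains at the cell surface. LAT1 is known for low levels in adult hepatocytes and for high levels in dividing cells. SLC7A5 (NM_174613) read 8.52, 7.83, 6.83 and 7.02 in LN fetuses L5, L6, L8 and L9. The values of HN fetuses L1, L2, L3 and L10 were 6.67, 6.93, 6.94 and 6.71. The excess in LN came from L5 and L6, while L8 lay inside the HN range and L9 just above it. The LN mean was 7.55 ± 0.78 and the HN mean 6.81 ± 0.14 (SD, n = 4 each), which differ by 0.74 on the log2 scale (SE 0.34, limma adjusted p = 0.785, exact permutation p = 0.114), or 0.41 without LN fetus L5. Its unadjusted limma p of 0.0596 passed 0.05 without LN fetus L8 (difference 0.98) or LN fetus L9 (0.91). The other detected probe differed by 0.43 (SE 0.34), and the remaining probe was well above background on 0 of 8 arrays.

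Fetus L5 also had by far the highest erythroid marker signal. The summed signal of the 9 detected erythroid markers was 301757 in L5, 49368 in L6, 30263 in L8 and 44196 in L9. It was 11590, 34424, 76341 and 44307 in HN fetuses L1, L2, L3 and L10. L5 was thus the highest fetus for both measures and L1 the lowest. HN fetus L3, next after L5 for erythroid markers, read 6.94 for SLC7A5, and L6, which followed L3, read 7.83. The neutrophil precursor markers MPO and ELANE were higher in LN by 1.32 and 0.91 on the log2 scale, without overlap. Of all detected genes, 2.59% were higher in LN without overlap. LTF, the other detected gene of the neutrophil list of 6, differed by -0.22. The summed signal of these 3 neutrophil genes ran from 1324 to 3011 in LN and from 966 to 2986 in HN. The part of either cell type in the transporter values was not tested.

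SLC3A2 (NM_001024488) read 11.21, 11.40, 11.13 and 11.22 in LN fetuses L5, L6, L8 and L9. Its HN values were 10.91, 10.61, 11.22 and 10.87 in L1, L2, L3 and L10. All LN fetuses lay above 3 of the HN fetuses, and HN fetus L3 lay among them. The log2 difference was 0.34 (SE 0.15, limma adjusted p = 0.785, exact permutation p = 0.0857). The unadjusted limma p was 0.0480, and it was over 0.05 in 7 of 8 cases when a fetus was left out, all but that without HN fetus L3. The difference then ran from 0.24 to 0.44. The dimmer probe of SLC3A2 differed by 0.13 (SE 0.17).

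**Figure D2:**
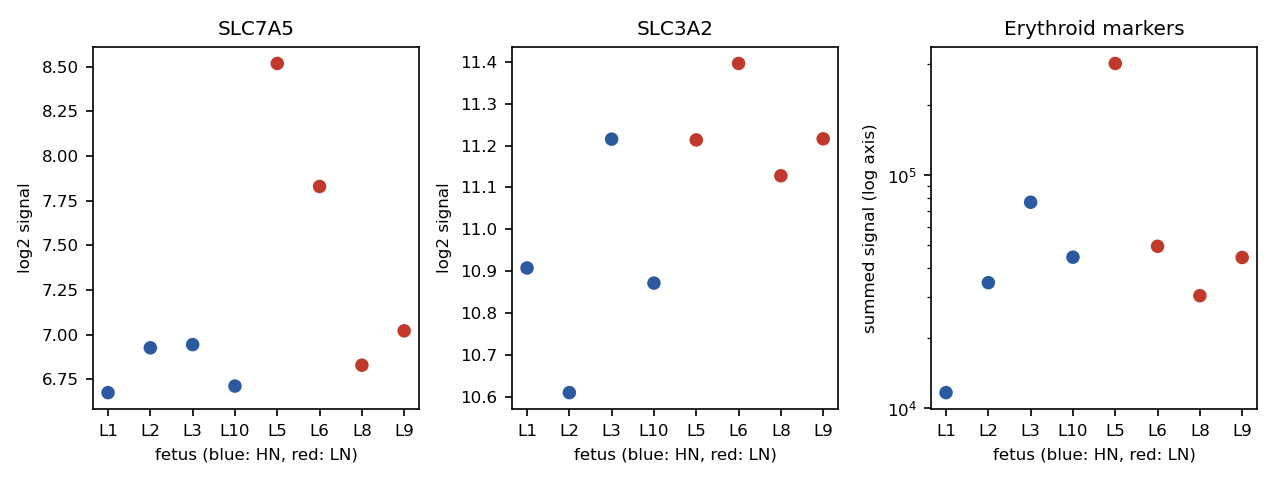
The log2 signal of SLC7A5 and of SLC3A2 and the summed signal of 9 erythroid markers (log axis) are plotted for each fetus, HN in blue and LN in red. LN fetus L5 is highest for SLC7A5 (8.52) and for erythroid markers (301757), and LN fetus L6 is highest for SLC3A2 (11.40).

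Across the 8 fetuses, SLC7A5 and SLC3A2 had a Pearson's r of 0.54 (exact permutation p = 0.180, adjusted over 5 pairs 0.898) and a Spearman's rho of 0.69 (exact permutation p = 0.0694, adjusted 0.347). Without LN fetuses L5 and L6, farthest from the SLC7A5 median, r was 0.36, and with group means removed it was 0.19. Neither adjusted p passed 0.05. SLC1A4 and SLC1A5 had an r of 0.21 (exact permutation p = 0.632, adjusted 0.990) and a rho of 0.35 (exact permutation p = 0.399, adjusted 0.882). Without HN fetuses L2 and L10 that r was 0.26, and with group means removed it was -0.56. A slide held 4 fetuses of 1 group, too few for a value within it.

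SLC43A1 (LAT3) carries large neutral amino acids by facilitated diffusion and is known for abundant expression in liver. Its only probe (NM_001206598) read 13.67, 13.86, 13.46 and 13.83 in LN fetuses L5, L6, L8 and L9. In HN fetuses L1, L2, L3 and L10 it read 14.01, 13.28, 14.06 and 13.74, so that the HN fetuses spanned the LN range. The log2 difference was -0.070 (95% confidence interval -0.50 to 0.36, exact permutation p = 0.714, limma adjusted p = 0.961). It turned to 0.013 without LN fetus L8, 0.0086 without HN fetus L1 and 0.026 without HN fetus L3. The means of the SLC7A5 and SLC3A2 chains were higher in LN and that of SLC43A1 was not, and a difference between them was not tested.

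SLC38A2 (SNAT2) is the system A carrier that cells are known to induce when amino acids are scarce. Its brightest probe (NM_001082424) read 11.59, 12.17, 11.65 and 11.53 in LN fetuses L5, L6, L8 and L9. The values of HN fetuses L1, L2, L3 and L10 were 12.52, 11.76, 11.92 and 11.08. HN fetuses L1 and L10 were the highest and the lowest of all 8, and the LN fetuses lay between them. The log2 difference was -0.086 (95% confidence interval -0.74 to 0.57, exact permutation p = 0.857, limma adjusted p = 0.969). The 4 other probes differed by -0.22, -0.16, -0.12 and 0.23, and without HN fetus L1 the brightest differed by 0.15. The HN SD of 0.59 was the largest of the 9 genes in that group.

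SLC38A4 (SNAT4), a system A carrier known for its expression in liver and placenta, had the lowest difference of the 9 genes. It (NM_001205943) read 10.24, 10.69, 10.20 and 10.95 in LN fetuses L5, L6, L8 and L9. Its HN values were 10.96, 10.61, 10.58 and 11.13 in L1, L2, L3 and L10. LN fetuses L5 and L8 lay below every HN fetus, and L6 and L9 lay among them. The log2 difference was -0.30 (SE 0.21, limma adjusted p = 0.834, exact permutation p = 0.229), and that of the second probe was -0.39 (SE 0.19, limma adjusted p = 0.787, exact permutation p = 0.0857). The brightest probe ranged from -0.44 to -0.19 over the 8 cases without 1 fetus. Across fetuses SLC38A2 and SLC38A4 had a Pearson's r of -0.035 (exact permutation p = 0.934, adjusted 0.990) and a Spearman's rho of -0.071 (exact permutation p = 0.882, adjusted 0.882). SLC38A2 with SLC7A5 gave an r of 0.0050 (exact permutation p = 0.990, adjusted 0.990) and a rho of -0.12 (exact permutation p = 0.793, adjusted 0.882). Without HN fetuses L1 and L10 these values of r were 0.19 and 0.081, and with group means removed they were -0.097 and 0.087.

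SLC38A3 (SNAT3) is the system N carrier that moves glutamine, asparagine and histidine in either direction across the hepatocyte membrane. It (NM_001040486) read 12.30, 12.98, 12.24 and 13.02 in LN fetuses L5, L6, L8 and L9. In HN fetuses L1, L2, L3 and L10 it read 12.76, 11.87, 12.85 and 12.30. In either group, 2 fetuses were at 12.76 or above and the others at 12.30 or below. The log2 difference was 0.19 (95% confidence interval -0.43 to 0.81, exact permutation p = 0.486, limma adjusted p = 0.925), it was 0.11 by the second probe, and it was 0.00055 without HN fetus L2.

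SLC6A9 (GlyT1) carries glycine and is known for its role in haem synthesis of erythroid cells as well as in the nervous system. Its brightest probe (NM_001242342) read 11.16, 11.47, 10.98 and 11.57 in LN fetuses L5, L6, L8 and L9. The values of HN fetuses L1, L2, L3 and L10 were 11.24, 11.35, 11.53 and 11.57. The groups overlapped over most of their range, and the log2 difference was -0.12 (95% confidence interval -0.49 to 0.24, exact permutation p = 0.429, limma adjusted p = 0.916). It was -0.020 without LN fetus L8 and -0.22 without LN fetus L9. The other detected probe differed by 0.36 (SE 0.34), so the direction depends on the probe. The remaining probes were well above background on 0 and 1 of the 8 arrays. With the mean of the 9 erythroid markers, SLC6A9 had an r of -0.091 (exact permutation p = 0.860, adjusted 0.990) and a rho of 0.24 (exact permutation p = 0.582, adjusted 0.882). Without LN fetuses L5 and L8, farthest from the SLC6A9 median, r was 0.84 over the other 6 fetuses, and with group means removed over all 8 it was 0.057, so the value rests on which fetuses enter. These correlations used the brightest probe, on which fetus L5, with the highest erythroid signal, read 11.16. On the other detected probe L5 read 9.70, the highest but for L6, and above every HN fetus.

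**Figure D3:**
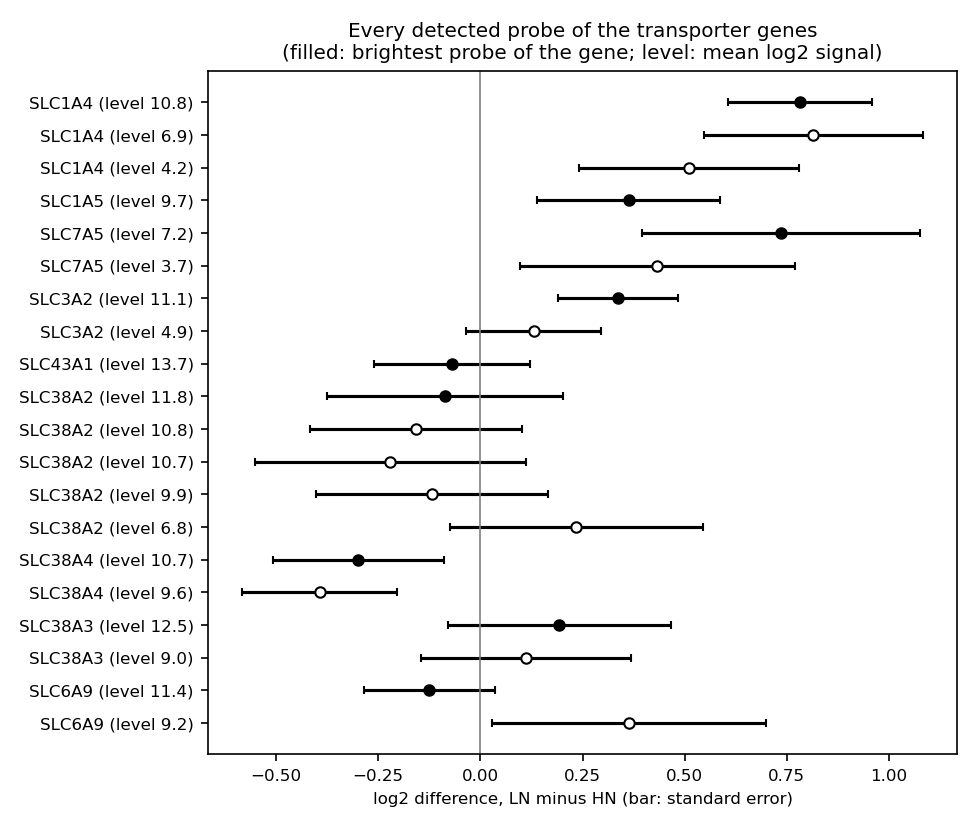
The log2 difference between LN and HN (points, with standard errors) is plotted for each of the 20 detected probes of the 9 genes, the brightest probe of each gene filled and the mean log2 signal given beside the name. The 3 probes of SLC1A4 lie between 0.51 and 0.81, while those of SLC6A9 and SLC38A2 lie on both sides of 0.

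Of 23 probes of the 9 genes, 20 were detected, of which 12 were higher and 8 lower in LN. Of 7 genes with more than 1 detected probe, SLC38A2 and SLC6A9 had probes in both directions. Among the 36 pairs of these 9 genes, the median of Pearson's r over the 8 fetuses was 0.14, from -0.57 for SLC1A5 with SLC6A9 to 0.85 for SLC38A3 with SLC43A1 and for SLC3A2 with SLC1A4. These values describe 8 fetuses that share slides, and are given without a test. Over all detected genes, the gene most like SLC1A4 across the 8 fetuses was METTL16 (r = 0.98), and that most like SLC3A2 was SP1 (r = 0.98). For SLC7A5 it was ETV1 (0.95), for SLC1A5 RIC3 (0.97), for SLC43A1 LPCAT4 (0.95) and for SLC6A9 TBC1D14 (0.96). For SLC38A2, SLC38A3 and SLC38A4 it was TMCC3 (0.90), DCAF8 (0.98) and SPSB1 (0.96). Each is the highest value over all other detected genes and rests on 8 fetuses.

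Other amino acid transporters of the plasma membrane and the lysosome were described from a list of 42 genes, of which 29 had a probe and 17 were detected. Of these 17, 8 had a higher and 9 a lower mean in LN, and the median log2 difference was -0.16. At an unadjusted limma p of 0.05, 1 was higher and 4 were lower, 29.4% of the 17 beside 6.05% of all detected genes, and 0 passed after adjustment (lowest limma adjusted p = 0.760). The number fell to 2 without LN fetus L5, LN fetus L6 or HN fetus L1, or with the mean over a gene's probes, and to 3 without LN fetus L8 or HN fetus L10. Of the 17, 1 was higher and 1 lower in LN without overlap, beside 2.59% and 1.56% of all detected genes.

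SLC38A11, a little-studied SLC38 protein, was higher in LN, at 7.83 to 8.44 against 7.32 to 7.74 in HN. Its log2 difference was 0.57 (SE 0.17, limma adjusted p = 0.760, exact permutation p = 0.0286), without overlap. CTNS (cystinosin), the lysosomal exporter of cystine, was lower at 7.30 to 7.76 in LN against 7.86 to 8.52 in HN, also without overlap. Its difference was -0.50 (SE 0.18, limma adjusted p = 0.760, exact permutation p = 0.0286), with -0.26 by its second probe. SLC7A8 (LAT2), another light chain that pairs with SLC3A2, differed by -0.51 (SE 0.18, limma adjusted p = 0.760, exact permutation p = 0.0571). SLC16A10 (TAT1), which releases aromatic amino acids, differed by -0.39 (SE 0.17, limma adjusted p = 0.785) and by -0.078 by its second probe. SLC38A7, a lysosomal glutamine carrier, differed by -0.31 (SE 0.13, limma adjusted p = 0.785), and its other probes ran from -0.75 to 0.11. SLC7A9, a light chain of the cystine and dibasic amino acid exchanger, differed by -1.16 (SE 0.84, limma adjusted p = 0.839, exact permutation p = 0.314), which was -0.40 without LN fetus L6. Its probe was well above background on 3 of 4 LN and 4 of 4 HN arrays, and not in L6, whose signal was 2.59. Without 1 fetus, the unadjusted limma p stayed under 0.05 in 8 of 8 cases for SLC38A11, 7 for CTNS, 4 for SLC7A8 and 2 each for SLC16A10 and SLC38A7. With normexp background correction the differences of SLC7A8, SLC16A10 and SLC7A9 were -0.28, -0.19 and -0.43, and with the mean over its probes that of SLC16A10 was -0.24.

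Of 9 mitochondrial amino acid carriers, 6 were detected, 2 of them higher and 4 lower in LN, and 1, lower in LN, reached an unadjusted limma p of 0.05 (16.7% of the 6, beside 6.05% of all detected genes). With normexp background correction 2 did. The 1 gene, SLC25A15, the ornithine and citrulline carrier that links the mitochondrial and cytosolic steps of the urea cycle, read 9.84, 9.53, 9.58 and 9.61 in LN fetuses L5, L6, L8 and L9. Its HN values were 10.35, 10.63, 9.76 and 10.30 in L1, L2, L3 and L10, so that HN fetus L3 lay just below LN fetus L5. The difference was -0.62 (SE 0.19, limma adjusted p = 0.760, exact permutation p = 0.0571), with -0.63 by the second probe.

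**Figure D4:**
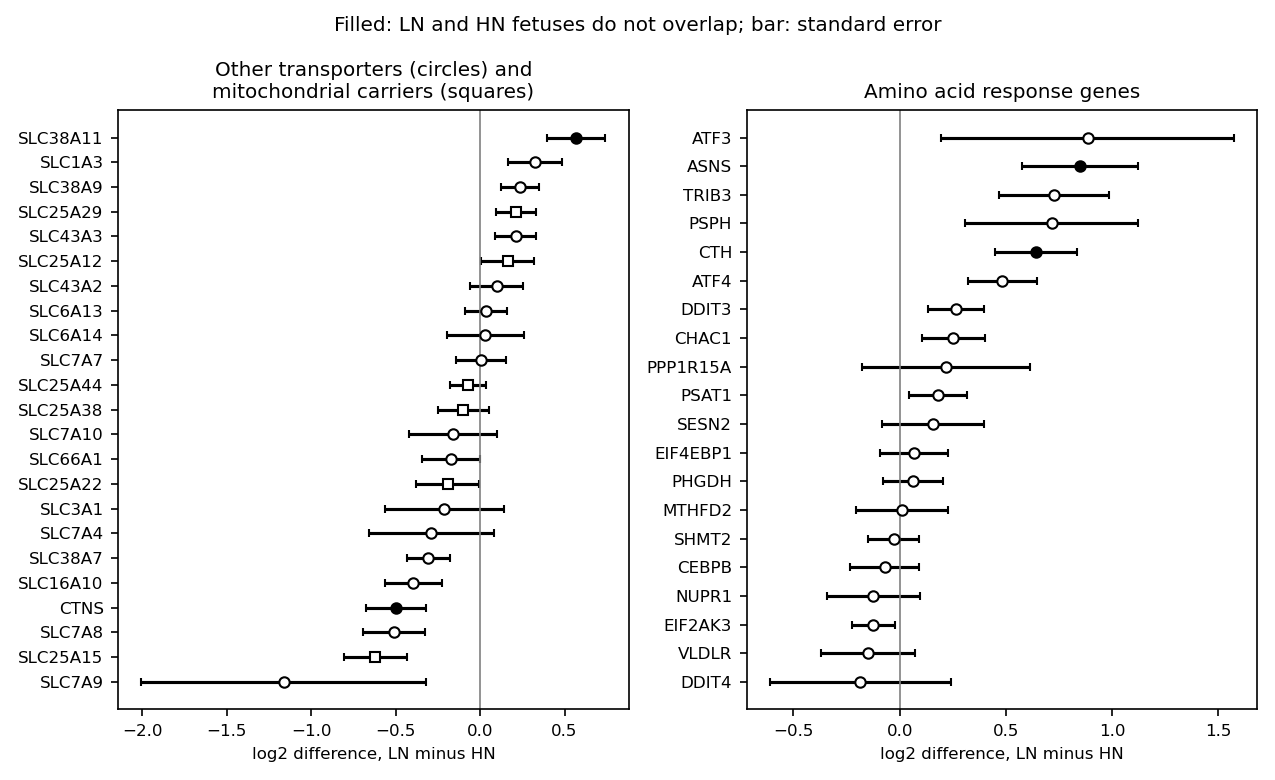
Log2 differences between LN and HN with standard errors are plotted for 17 other transporters and 6 mitochondrial carriers (left) and for 20 amino acid response genes (right), filled where the fetuses of the groups do not overlap. SLC38A11 (0.57) and CTNS (-0.50) at left and ASNS (0.85) and CTH (0.64) at right are filled.

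SLC7A5, SLC3A2, SLC1A4 and SLC38A2 are known targets of the amino acid response, in which uncharged tRNA activates the kinase GCN2 and the transcription factor ATF4 is translated. Of 24 genes listed for this response, 20 were detected, with 14 higher and 6 lower in LN and a median log2 difference of 0.17. At an unadjusted limma p of 0.05, 4 were higher and 0 lower, beside 3.30% and 2.75% of all detected genes, and 0 passed an adjusted p of 0.05. CTH, the cystathionine cleaving enzyme that makes cysteine, was higher by 0.64 (SE 0.19, limma adjusted p = 0.760, exact permutation p = 0.0286). ASNS, asparagine synthetase, was higher by 0.85 (SE 0.27, limma adjusted p = 0.760, exact permutation p = 0.0286), and neither gene overlapped between the groups. ATF4 itself differed by 0.48 (SE 0.16, limma adjusted p = 0.760, exact permutation p = 0.0571), and TRIB3, a pseudokinase induced by ATF4, by 0.73 (SE 0.26, limma adjusted p = 0.760, exact permutation p = 0.0857). The other probes of TRIB3 differed by 0.094 and 0.74, and its unadjusted limma p was over 0.05 without LN fetus L5, LN fetus L8 or HN fetus L2. Without 1 fetus, between 3 and 5 genes of the list were called. Of the 20 genes, 2 were higher in LN without overlap and 0 lower, beside 2.59% and 1.56% of all detected genes. SLC1A4, ASNS and CTH had the LN fetuses above all HN fetuses, and L10 was the lowest in each. The highest fetus was L6 for SLC1A4 and ASNS, L5 for CTH, and L8 for ATF4 and TRIB3. SLC38A2 did not have a higher mean in LN.

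Amino acids that enter the cell are sensed by the mTORC1 kinase complex and its Rag GTPases at the lysosome. Of 29 genes listed for this sensing, 22 were detected, 15 higher and 7 lower in LN, with differences between -0.26 and 0.23 on the log2 scale. At an unadjusted limma p of 0.05, 0 of 22 were called, beside 6.05% of all detected genes, and 0 by the adjusted p. With normexp background correction 3 were called, and 2 by the methods' t-test. Those with the lowest p were SEH1L of the GATOR2 complex (0.23, SE 0.13), LAMTOR2 of the Ragulator complex (-0.19, SE 0.11), NPRL3 of the GATOR1 complex (-0.26, SE 0.17) and the leucyl-tRNA synthetase LARS1 (0.15, SE 0.11).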

How the data were processed

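The authors deposited 1 Agilent Feature Extraction 11.0.1.1 file per array (design annotation on UMD 3.1), holding intensity values corrected for background and spatial trend but not scaled between arrays. A deposited table gives log2 values of 31068 probes, which the methods describe as quantile normalized in GeneSpring GX. No array test is named there.

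From the intensities, control spots and 16 probes marked as outliers were left out, and log2 values of 43637 probes were quantile normalized. RefSeq mRNA accessions of 26740 probes were matched to genes through a RefSeq table (ARS-UCD2.0). No coordinates are given, since the builds differ. Each gene is given by the brightest of its detected probes, and levels of different probes were not compared. The groups were tested in R 4.3.3 using lmFit and eBayes of limma 3.58.1 (2-sided, Benjamini-Hochberg over all detected probes) and, per gene, with an exact 2-sided permutation test over 70 divisions of the fetuses (scipy 1.17.1). Replicates are separate fetuses by the labels. The number of arrays limits the precision. On simulated data with 33439 probes, 42.5% of 200 probes changed by 1 on the log2 scale and 90.5% of 200 changed by 2 passed an adjusted p of 0.05.

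The 10 genes and the lists of other genes were written by hand with earlier results of these data known, and the alternatives were set at the same time. Other transporters and mitochondrial carriers were named at an unadjusted p of 0.05, without overlap, or at a difference over 1. Of the response and sensing lists, the 4 genes with the lowest p were named. Of the lymphocyte, macrophage, neutrophil, endothelial, stellate and dividing-cell markers, 6 of 8, 7 of 8, 3 of 6, 7 of 7, 7 of 7 and 4 of 6 were detected, with median log2 differences of -0.30, -0.090, 0.91, 0.13, -0.10 and -0.22. For the hepatocyte list it was 0.013 and for the erythroid list 1.21.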

Additional observations from a re-analysis of the deposited data

Results flagged for a closer look

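In SLC1A4, LN fetus L6, at a log2 signal of 11.45, lay far above the other 3 LN fetuses, which were between 11.06 and 11.09. The gap was 0.935 of the range of the group, above Dixon's 95% critical value for 4 samples. It was the only such fetus in 48 groups of 4, where chance gives about 1 in 20. Without any 1 fetus, L6 included, SLC1A4 remained higher in LN by at least 0.65 on the log2 scale.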

How the results depend on the processing

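The alternatives were a 75th percentile scaling, normexp on the spot and background medians, the deposited log2 values, either no detection filter or one that needs all arrays, a robust eBayes with trend, averaging of the probes of a gene and, for counts, the methods' t-test, beside leaving out each fetus. Of 24 genes, 21 kept their direction under every alternative run, of which SLC7A9, not above background on 1 array, lacks the deposited values and the filter on all arrays. With each fetus left out, SLC38A2 ran from -0.33 to 0.15 and SLC43A1 from -0.23 to 0.026 on the log2 scale. Averaging the detected probes turned SLC6A9 to 0.12. The number of transporter genes at an unadjusted limma p of 0.05 was between 1 and 2 with each fetus left out and 1 with the mean over probes. The number with a lower mean in LN was between 2 and 4, and the number of other transporters called was between 2 and 5, 2 with the mean over probes and 6 with no detection filter. Counts under the alternatives were added, for the response, sensing and mitochondrial lists, after seeing the data. With normexp, 3 mTORC1 genes (0 as reported above) and 2 mitochondrial carriers were called, and by the methods' t-test 2 of each. With each fetus left out, detected probes at an unadjusted p of 0.05 numbered between 1343 and 2639, the fewest without HN fetus L10, and between 0 and 1 passed an adjusted p of 0.05, the 1 without LN fetus L6. The median over the 9 genes ran from 0.00055 to 0.31. The r of SLC1A4 with SLC1A5 was -0.56 with group means removed, and that of SLC6A9 with the erythroid mean was 0.057 then and 0.84 without the fetuses at the ends. For SLC38A2 with SLC38A4, r was 0.19 without the fetuses at the ends. The cause of these shifts was not tested. No paired analysis was possible because the LN and HN fetuses came from different dams.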
